A study of Mus musculus with 4 samples.

Results

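The material was 4 mouse tibialis anterior muscles, a fast-twitch shin muscle that lifts the foot. They were profiled by TOMO-seq, in which a tissue is cut into serial cryosections and the RNA of each section is given its own barcode. Per the labels' protocols, each section was primed with a 6-base unique molecular identifier (UMI) and an 8-base section barcode, and libraries were made by CEL-Seq2, which reads the 3' ends of transcripts. The 4 samples form 1 group: the labels give the species and the tissue, while no source used here gives strain, age, genotype or treatment, or states that the animals were separate. For each muscle the authors deposited estimated counts for 96 barcodes, and in a second table only the sections they kept.

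The barcodes described here lie just beyond those kept sections. A barcode was called kept when its counts matched a column of the second table up to 1 factor, which gave 37, 45, 46 and 43 kept sections in muscles 1 to 4. The 25 barcodes with numbers just above the last kept one were then taken in each muscle, 100 of 384 barcodes in all. They were barcodes 337 to 361 in muscle 1, 351 to 375 in muscle 2, 56 to 80 in muscle 3 and 51 to 75 in muscle 4. The rule uses only the position of a barcode and not the level of any gene. The labels do not say in which order sections received their barcodes or which end of the muscle was cut last, so "beyond" refers to barcode numbers.

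A limb muscle tapers at its ends into tendon, a tissue of fibroblasts that lay down type I collagen together with small proteoglycans such as fibromodulin, and its gliding surfaces are coated by the lubricant proteoglycan 4. The tip of each fibre is anchored to the tendon at the myotendinous junction. White fat lies around and between muscles; its cells store lipid in droplets coated by perilipin and secrete adiponectin and adipsin.

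The members and the kept sections of a muscle carry section barcodes because CEL-Seq2 pools sections into 1 library, so the barcodes themselves matter for what a member can have received from elsewhere. Muscles 1 and 2 drew on the same 96 barcodes, and muscles 3 and 4 on another 96. The sequences of the member with the most transcripts of the tendon gene list in each muscle are shown with the kept barcode closest to it, as written in the deposited barcode list, with the bases that differ between the pair in capitals.
muscle 1, barcode 350: AaTagggC
muscle 1, kept barcode 323: TaGagggT
muscle 2, barcode 353: gTgCtAgt
muscle 2, kept barcode 328: gAgTtGgt
muscle 3, barcode 74: AAtcaTGc
muscle 3, kept barcode 10: TCtcaCAc
muscle 4, barcode 52: TgatGTaG
muscle 4, kept barcode 43: GgatTGaC
The pairs of muscles 1 and 2 differed at 3 bases and those of muscles 3 and 4 at 4 bases. No member came closer than 3 mismatches to a kept barcode of its own muscle in muscles 1 and 2, or closer than 4 in muscles 3 and 4. In muscle 1, 14 of the 25 barcodes were kept sections of muscle 2, and in muscle 4, 5 of the 25 were kept sections of muscle 3. Muscles 2 and 3 had none. Barcode 350, shown for muscle 1, was a kept section of muscle 2, where it held 48489 transcripts of genes not named mt-. Barcode 52, shown for muscle 4, was a kept section of muscle 3, where it held 124685.

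The members held few transcripts. Levels throughout are counts scaled to a common total of the genes not named mt- (CPM). Mitochondrially encoded transcripts took more than 59% of the sums beyond and of the sums of all kept sections in every muscle. The 25 barcodes summed to 120276, 124849, 145661 and 110835 transcripts of genes not named mt- in muscles 1 to 4. This was 1.56%, 1.87%, 1.503% and 1.46% of the same total in the kept sections of that muscle. Per barcode the median was 2371, 1686, 3451 and 666 transcripts beyond, against 191926, 131140, 195680 and 160578 in the kept sections. The highest single member held 39520, 25804, 22726 and 30195 transcripts; it was the first barcode beyond in muscles 1, 2 and 4 and the fifth in muscle 3. Barcodes more than 25 numbers beyond, called far barcodes below, had medians of 678, 537, 1267 and 617. Mitochondrial transcripts made up 63.9%, 64.9%, 73.6% and 71.002% of all transcripts beyond, against 59.1%, 60.9%, 64.1% and 66.9% in the kept sections; most genes whose UMIs were nearly used up in kept sections are mitochondrial, so these kept shares are uncertain.

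**Figure D1:**
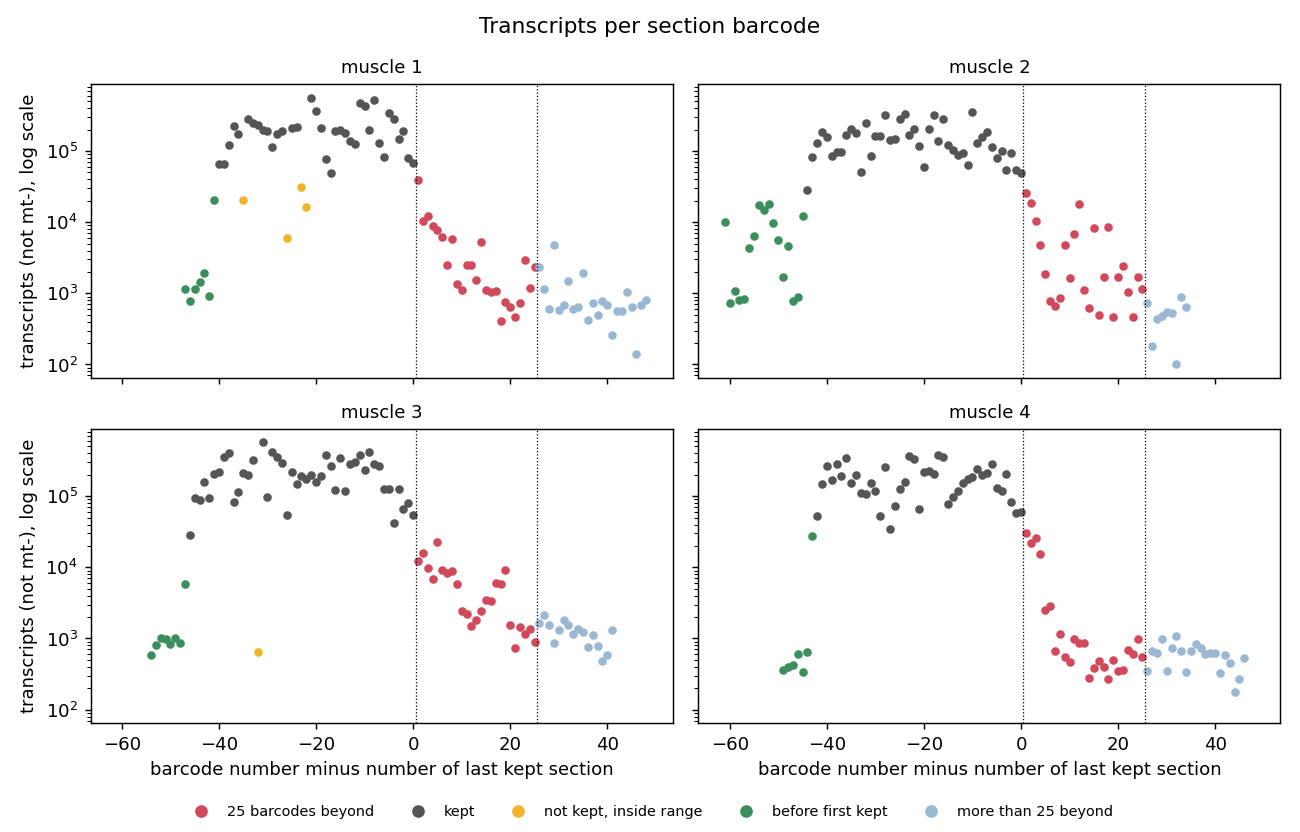
Transcripts of genes not named mt- per section barcode (log scale) against the barcode number relative to the last kept section, 1 panel per muscle and 1 point per barcode. The 25 barcodes beyond (red, between the dotted lines) lie below the kept sections (grey) of the same muscle, and the far barcodes (light blue) follow to the right.

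Tendon, collagen and fat-cell transcripts took a larger share beyond the last kept section than in the kept sections, while fast-fibre transcripts took about the same share. Of 11908 genes tested, 355 differed (2.98%), 289 of them higher (2.43%) and 66 lower (0.554%) beyond (edgeR quasi-likelihood test with muscle as block, adjusted p at most 0.05). The median gene differed by 0.09 on the log2 scale, and 267 of the 355 had the same sign in all 4 muscles. The balance of the calls depended on the scaling: 81.4% of the called genes were higher with the total as scale, against 17.5% with TMM scaling, a scaling by a trimmed mean of ratios, which gave 173 genes higher and 818 lower and moved the median gene to -0.29. With muscle as block, the p-values measure how far the difference between beyond and kept varied among the 4 muscles, with dispersions shared in part over genes. This spread may be technical. The fitted standard errors (SE) can be much narrower than the spread of the differences between muscles, as for Prg4 and Nnat below, so very small p-values overstate how closely the muscles matched.

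Of 16 tendon genes, 13 had enough counts to be tested. The filter on low counts asked for 2.92 CPM in 2 of the 8 sums; 8 of the 13 met it in the kept sections alone, and 7 of these 8 were higher beyond and 0 lower. The other 5 (Mkx, Comp, Kera, Cilp2 and Ptx4) were tested only because of their counts beyond, where they are high, so the list's total of 11 called genes and its median log2 difference of 3.65, against 0.09 over all genes tested, are descriptions. Summed over the list, tendon transcripts were at 5814, 1555, 4459 and 1255 CPM beyond, against 337, 206, 214 and 202 CPM in the kept sections. The lowest muscle beyond was above the highest among the kept.

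Prg4, proteoglycan 4 or lubricin, was at 2960, 617, 1214 and 117 CPM beyond in muscles 1 to 4, against 106, 69.3, 29.5 and 27.1 CPM in the kept sections. The groups did not overlap, although muscle 4 beyond, with 13 transcripts, came close to kept muscle 1. The log2 difference was 4.21 ± 0.14 (SE; edgeR adjusted p = 7.55e-191), and it was positive in 4 of 4 muscles, from 2.11 in muscle 4 to 5.36 in muscle 3. The gene lies at chr1:150449412-150466165 on the minus strand of GRCm38 and overlaps Tpr on the other strand; no source used here gives the strand setting of the counting, so reads of such partners cannot be told apart.

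Chad, chondroadherin, is a leucine-rich matrix protein of cartilage and tendon that binds collagen and integrins. It was at 1024, 313, 1588 and 605 CPM beyond, against 29.7, 8.97, 10.1 and 10.4 CPM in the kept sections, with every value beyond above every kept value. The log2 difference was 5.92 ± 0.16 (edgeR adjusted p = 3.55e-300). In counts, 123, 39, 231 and 67 transcripts beyond stood against 229, 60, 98 and 79 in kept sections that were sequenced to far greater depth, so that in muscle 3 the 25 barcodes held more Chad transcripts than all 46 kept sections.

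Fmod, fibromodulin, which binds type I collagen and regulates fibril thickness, was at 524, 96.1, 371 and 72.2 CPM beyond, against 23.7, 4.78, 9.496 and 11.5 CPM in the kept sections. The groups did not overlap, and the log2 difference was 4.40 ± 0.25 (edgeR adjusted p = 4.09e-65). Other members of the list that were higher were Prelp, a further small leucine-rich proteoglycan, Cilp, and Thbs4, a thrombospondin of tendon and its junction with muscle. Tnmd, tenomodulin, a membrane protein of tendon cells, was also higher. Comp, the cartilage oligomeric matrix protein that is also abundant in tendon, rested on 22 transcripts beyond and 57 in the kept sections (log2 difference 4.57 ± 0.58). Kera, another such proteoglycan, Cilp2 and Mkx, a transcription factor of tendon cells, also had positive differences. Comp, Kera, Cilp2 and Mkx met the filter only with their counts beyond, so their differences are descriptions.

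Single muscles weighed on the low-count members. Tnmd had 6, 0, 10 and 1 transcripts beyond and lost its call without muscle 3, as did Cilp2, while Mkx, with 6, 2, 0 and 0, lost it without muscle 2. Prg4, Chad and Fmod were called under all 16 alternative settings. Angptl7, an angiopoietin-like secreted protein outside the tendon list, was at 366, 88.1, 544 and 27.1 CPM beyond, against 14.4, 8.97, 2.17 and 2.91 CPM in the kept sections (log2 difference 5.16 ± 0.32, edgeR adjusted p = 3.63e-57). The groups did not overlap, and muscle 4 was the lowest beyond.

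Of 14 collagen and matrix genes 12 met the filter in the kept sections alone, and 5 of these were higher and 0 lower; with Col12a1, which met it only with its counts beyond, 6 of 13 tested were higher, with a median of 0.91. Col1a1 and Col1a2 encode the chains of type I collagen, the main protein of tendon. Col1a1 was at 1132, 240, 2987 and 569 CPM beyond, against 173, 66.9, 196 and 175 CPM in the kept sections (log2 difference 2.73 ± 0.13, edgeR adjusted p = 7.37e-94). The groups did not overlap, and muscle 3 was the highest. Col1a2 differed by 2.45 ± 0.11 (edgeR adjusted p = 1.35e-99) and Sparc, a collagen-binding matrix protein, by 1.81 ± 0.12 (edgeR adjusted p = 6.33e-48). The other higher members were Col3a1, Col12a1 and Fn1; each lost its call without muscle 3, and Fn1, fibronectin, had 42 of its 53 transcripts beyond in that muscle. Of fibro-adipogenic progenitor genes, which mark the resident fibroblast-like cells of muscle, 2 of 12 were higher (Dcn and Gsn) and 0 lower, with a median of 0.19; under TMM scaling the median was -0.19, with 2 higher and 2 lower. Dcn, decorin, was at 217 CPM beyond in muscle 4, against 257 CPM in its kept sections, and was above the kept level in the other 3 muscles.

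**Figure D2:**
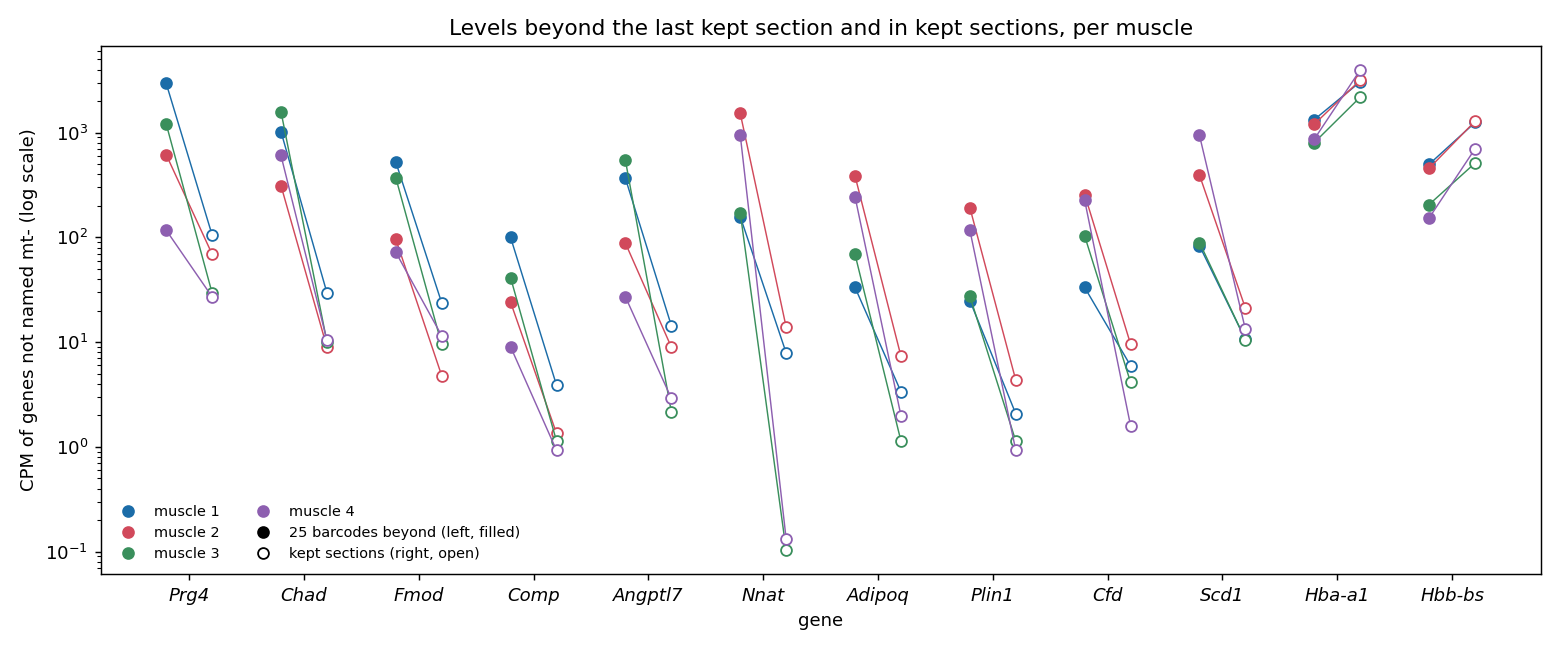
CPM (log scale) of 12 genes in the 25 barcodes beyond the last kept section (filled, left) and in the kept sections (open, right), with 1 colour and 1 line per muscle. Tendon and fat-cell genes lie higher beyond in all 4 muscles, and both haemoglobin genes lie lower.

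Of the myotendinous junction list 3 of 10 genes were higher and 0 lower, with a median of 0.42. They were Thbs4, which is also on the tendon list (391 ± 205 CPM beyond and 91.5 ± 13.8 CPM in the kept sections, SD, n = 4 each), Tigd4 and Xirp2. Xirp2, a muscle actin-binding repeat protein, differed by 0.56 ± 0.10 (edgeR adjusted p = 7.87e-06); under TMM scaling it was not called. It stood at 1792 ± 396 CPM beyond and 1225 ± 351 CPM in the kept sections, and at 4679 ± 1908 CPM in the far barcodes (SD, n = 4 each). Col22a1, the collagen of the junction itself, had 2, 1, 2 and 4 transcripts beyond and was not called (log2 difference 1.46 ± 0.67, edgeR adjusted p = 0.337).

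Of 12 adipocyte genes 11 were tested, 7 of which met the filter in the kept sections alone; 6 of these 7 were higher beyond and 0 lower. Plin1, Cidec, Retn and Pck1 met it only with their counts beyond, so the list's 10 called genes and its median of 5.01 are descriptions. Without Car3 and Fabp4, which muscle fibres and capillaries also express, the sum over the list was highest in muscles 2 and 4. The choice to set those genes apart was made after their values were seen.

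Nnat, neuronatin, a small membrane protein known from brain and also expressed in fat cells, had the largest difference of the genes named. It was at 158, 1530, 172 and 949 CPM beyond, against 7.89, 13.9, 0.103 and 0.132 CPM in the kept sections. The groups did not overlap. In muscles 3 and 4 the kept sections held 1 Nnat transcript each among 9692460 and 7566154, while the 25 barcodes held 25 and 105 among 145661 and 110835. The fitted log2 difference was 7.08 ± 0.20 (edgeR adjusted p = 3.01e-263), and the muscles ran from 4.32 in muscle 1 to 12.81 in muscle 4. The gene (chr2:157560078-157562522, plus strand, GRCm38) lies inside Blcap, which runs on the other strand.

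Adipoq, adiponectin, was at 33.3, 385, 68.7 and 244 CPM beyond, against 3.36, 7.32, 1.14 and 1.98 CPM in the kept sections (log2 difference 5.67 ± 0.34, edgeR adjusted p = 1.08e-57). Muscles 2 and 4 were again the highest, and the groups did not overlap. Cfd, adipsin, a complement protease secreted by fat, was at 33.3, 257, 103 and 226 CPM beyond, against 5.95, 9.57, 4.13 and 1.59 CPM in the kept sections (log2 difference 4.86 ± 0.33, edgeR adjusted p = 1.74e-44). Scd1, the desaturase that makes monounsaturated fatty acids, was at 83.1, 393, 89.3 and 940 CPM beyond, against 10.6, 21.1, 10.5 and 13.2 CPM in the kept sections (log2 difference 4.51 ± 0.21, edgeR adjusted p = 5.90e-96).

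Of the lipid-droplet proteins on the list, Plin1 and Cidec moved with them. Plin4, another perilipin, had 2, 2, 3 and 2 transcripts beyond and was the 1 tested member of the list that was not called. Plin1, perilipin 1, was 5.33 ± 0.46 log2 units higher (44 transcripts beyond) and Cidec, which fuses droplets, 5.40 ± 0.51 (34 transcripts). Both met the filter only with their counts beyond, so these differences are descriptions. Their calls were lost when the first 5 barcodes were left out. Retn, the fat hormone resistin, and Pck1, which makes glycerol phosphate for fat storage, had 11 and 22 transcripts beyond and are descriptions for the same reason. Hp, haptoglobin, and Prkar2b, a regulatory subunit of protein kinase A, were also among the largest differences. Hp had 10 transcripts beyond, and Prkar2b had 3, 11, 1 and 2 in muscles 1 to 4. Cyp2f2, a cytochrome P450 enzyme, differed by 4.67 ± 0.55, with 15 of its 25 transcripts in muscle 4. Hp, Prkar2b and Cyp2f2 also met the filter only with their counts beyond, so their differences are descriptions.

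Car3 and Fabp4 moved less. Fabp4, the fatty-acid carrier of fat cells and capillaries, was at 150, 690, 440 and 678 CPM beyond, against 177, 183, 263 and 174 CPM in the kept sections (log2 difference 1.24 ± 0.14, edgeR adjusted p = 1.13e-16); muscle 1 was lower beyond. Car3, a carbonic anhydrase abundant in fat and in slow muscle fibres, differed by 0.32 ± 0.09 (edgeR adjusted p = 0.0291), and under TMM scaling its difference was -0.07. Its call held in 5 of 16 alternative settings and was lost with DESeq2 and without muscle 1, 2 or 4, and in muscle 3 it was lower beyond.

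**Figure D3:**
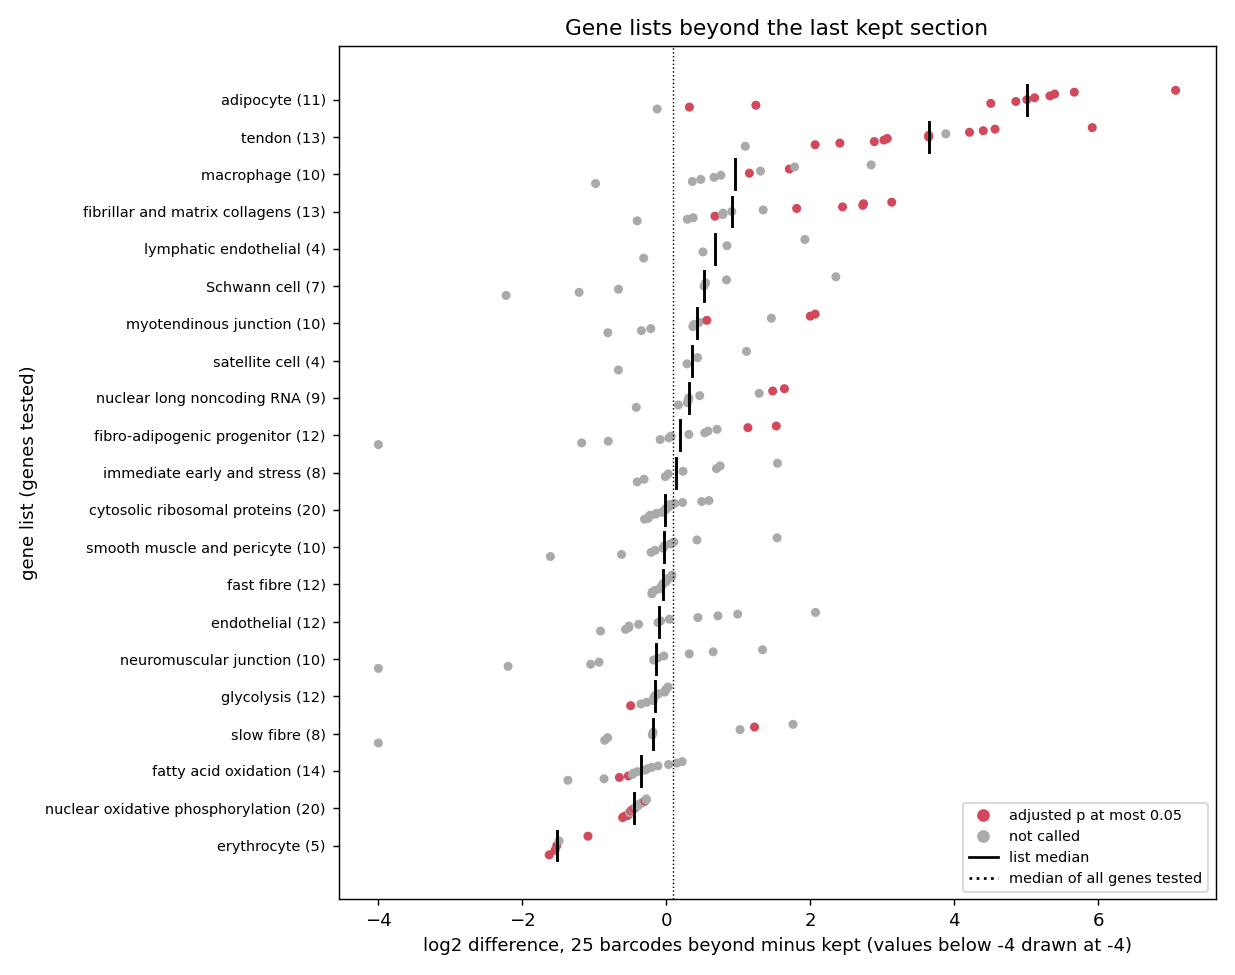
Log2 difference of each tested member of 21 gene lists, 25 barcodes beyond minus kept sections, with called genes in red, the list median as a bar and the median of all genes tested as a dotted line. The adipocyte (median 5.01) and tendon (3.65) lists lie to the right, and the erythrocyte list (-1.52) to the left.

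Muscle-fibre transcripts were present beyond at about the kept level. None of the 12 fast-fibre genes was called, and their log2 differences ran from -0.20 to 0.08, with 1 at an unadjusted p under 0.05 and 1 called lower by DESeq2. Under TMM scaling all 12 were called lower, with a median of -0.44 against a median of -0.29 over all genes; 6 of them are among 9 non-mitochondrial genes that used at least 90% of all possible UMIs in a kept section. Their sum was at 266901, 240503, 237509 and 277955 CPM beyond, against 248064, 238730, 249056 and 286193 CPM in the kept sections. Of 20 cytosolic ribosomal protein genes none was called by edgeR (median -0.01, 1 at an unadjusted p under 0.05), 1 was lower by DESeq2 and 6 were lower under TMM scaling, and of 12 glycolytic genes 1 was lower, Pgam2, against 12 under TMM scaling. Pgam2 was called in 4 of 16 alternative settings and lost its call when any 1 of the muscles was left out. Of 8 slow-fibre genes 1 was higher, Atp2a2, on 26 transcripts beyond (edgeR adjusted p = 0.0444). It was called in 4 of 15 alternative settings and lost its call under TMM scaling, with DESeq2 and without muscle 2, 3 or 4.

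Haemoglobin and oxidative transcripts were lower beyond than in all kept sections. Of 5 erythrocyte genes tested 4 were lower and 0 higher, and of 20 nuclear genes of oxidative phosphorylation 9 were lower and 0 higher, with a median of -0.44; under TMM scaling all 20 were lower. Against the last 5 kept sections 0 of these 20 were called, with a median of -0.15. Of the 9 calls, 7 were lost with the barcodes that are kept sections of the partner muscle left out, and 6 (Sdha, Atp5o, Atp5b, Cox6a2, Cycs and Cox7a1) were lost on leaving out at least 1 of the muscles. Hba-a1, alpha globin, was at 1333, 1204, 804 and 868 CPM beyond, against 3055, 3179, 2184 and 3967 CPM in the kept sections (log2 difference -1.55 ± 0.11, edgeR adjusted p = 1.72e-43). Hbb-bs, beta globin, differed by -1.52 ± 0.14 (edgeR adjusted p = 2.54e-26). The globin genes have near-identical copies (Hba-a1 and Hba-a2, Hbb-bs and Hbb-bt), so the split of reads between copies is uncertain. Against the last 5 kept sections Hba-a1 differed by 0.02 ± 0.15 (edgeR adjusted p = 0.954).

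The far barcodes shared the lower levels of both lists. The oxidative list stood at 22772, 22502, 25490 and 24130 CPM beyond and at 22728, 17771, 25226 and 18611 CPM in the far barcodes, against 31628, 30744, 29455 and 30057 CPM in the kept sections. Malat1, a nuclear long noncoding RNA, showed the opposite order, with 868 ± 438 CPM beyond, 1134 ± 386 CPM in the far barcodes and 284 ± 163 CPM in the kept sections (SD, n = 4 each; log2 difference beyond against kept 1.64 ± 0.12, edgeR adjusted p = 3.47e-37). What part the low total of a barcode has in these differences was not tested. Among the genes with the largest falls by the naming rule were also Cnot8, with 2 transcripts beyond, Zfp706, Nmrk2, Uqcr11, Spcs1, St3gal5, Vegfb, Ech1 and Actc1. Actc1 was called in 12 of 16 alternative settings, and each of the others in no more than 7 of its 15 or 16.

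Markers of other cell types near a muscle were mostly few or not called, apart from macrophage genes. Of the 8 macrophage genes that met the filter in the kept sections alone, 2 were higher. Of the cartilage and bone list, 2 of 12 genes had enough counts to be tested and none was called; 7 of the 10 genes present in the files, among them Col2a1, were at 0 in all 4 sums beyond. Of the skin list 6 of 9 genes were at 0; its sum was at 0, 16.02, 20.6 and 18.04 CPM beyond, against 3.62, 3.59, 3.61 and 3.04 CPM in the kept sections, and so above the kept level in 3 of 4 muscles, on at most 3 transcripts a muscle. Its 1 tested gene, Perp, differed by 3.46 on the log2 scale with an unadjusted p under 0.05 and was not called. Perp met the filter only with its counts beyond, so this difference is a description. No gene was called of 12 endothelial, 10 smooth muscle and pericyte, 10 neuromuscular junction, 7 Schwann cell, 4 lymphatic endothelial and 4 satellite cell genes tested, nor of 8 immediate early and stress genes; by list, 2, 1, 0, 1, 1, 0 and 1 of them had an unadjusted p under 0.05, and DESeq2 called none. TMM scaling called 1 endothelial, 3 smooth muscle and pericyte, 1 neuromuscular junction and 1 immediate early and stress gene lower. In these summed sections, fewer cells of a type and less RNA per cell cannot be told apart.

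The barcodes just before the first kept section lie on the other side of the kept ones in the same libraries. There were 7, 17, 8 and 7 of them, with 180143 transcripts in all. Of 1860 genes tested, 49 differed between the barcodes beyond and before (2.63%), 41 of them higher (2.2%) and 8 lower (0.43%) beyond (edgeR adjusted p at most 0.05). Of 16 tendon genes 5 were tested, none of which met the filter of this comparison in the barcodes before alone. The filter asked for 90.6 CPM in 2 sums and a minimum total count. Of 12 adipocyte genes 7 were tested and 2 met it in the barcodes before alone. That nearly all of these were called higher was therefore set by the filter, and only their counts are given.

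Chad had 460 transcripts beyond and 2 before, both in muscle 2. Nnat had 340 beyond and 2 before. Adipoq and Plin1 had none before; against the limit of 3 counts over that group, 16.7 CPM, Adipoq was at least 10.7-fold higher and Plin1 at least 5.27-fold higher over the summed transcripts beyond. Prg4 was at 117 CPM or more in every muscle beyond. Before, it was at 36.04, 90.9, 253 and 0 CPM, on 1, 10, 3 and 0 transcripts, so these groups overlapped. Fmod had 63, 12, 54 and 8 transcripts beyond and Angptl7 had 44, 11, 79 and 3, with 1 transcript each before.

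The lower genes included Hbb-bt (-2.12 ± 0.29, edgeR adjusted p = 1.64e-10), and the 4 globin genes tested were all lower. Muscle 4 set the size of this: its erythrocyte list was at 1121 CPM beyond and at 25554 CPM before, and without muscle 4 the Hbb-bt call was lost (log2 difference -0.87). Cacybp, Ankrd23, Mylpf and Tnnc2 were also lower, and these calls held in 3, 1, 1 and 3 of 8 alternative settings.

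Compared with the 5 kept sections that adjoin them, the barcodes beyond differed in 169 of 3595 genes tested (4.7%), 159 of them higher (4.42%) and 10 lower (0.278%; edgeR adjusted p at most 0.05). Chad was at 1024, 313, 1588 and 605 CPM beyond, against 100, 37.4, 40.7 and 30.4 CPM in the last 5 (3.97 ± 0.21, edgeR adjusted p = 1.59e-15). Prg4 was at 324, 150, 70.5 and 72.2 CPM in the last 5, and its difference was 2.81 ± 0.24 (edgeR adjusted p = 1.20e-10). Nnat stood at 23.4, 92.2, 0 and 1.90 CPM in the last 5, below its level beyond in each muscle. Summed over the list, tendon transcripts were at 771, 362, 304 and 308 CPM in the last 5, which was above the level of all kept sections and below that of the barcodes beyond in each muscle.

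In the same comparison the filter was 40.5 CPM in 2 sums. Of 9 tested tendon genes 3 met it in the last 5 sections alone, and all 3 were higher beyond. Of 9 tested adipocyte genes 2 did, with 1 higher, and of 9 tested collagen and matrix genes 5 did, with 5 higher. The other tested members passed only with their counts beyond, and 7, 3 and 5 members of the 3 lists were not tested. Nnat, Plin1, Cidec and Fmod passed only with their counts beyond, so their differences are descriptions. By size, Plin1, Ccdc3, a secreted protein of fat and vessel cells, and Cidec were among the largest differences, while Fmod differed by 2.89 ± 0.28. Mstn, myostatin, the muscle-made inhibitor of muscle growth, was lower at 27.2 ± 12.1 CPM beyond and 69.8 ± 32.4 CPM in the last 5 (SD, n = 4 each; -1.35 ± 0.37, edgeR adjusted p = 0.0284), on 14 transcripts beyond. Its call was lost without muscle 2, 3 or 4.

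Within the 25 barcodes, tendon and fat transcripts were unevenly placed. In blocks of 5 barcodes from the nearest to the farthest, the tendon list in muscle 1 was at 2774, 9245, 18354, 20743 and 647 CPM. Muscle 3 had its maximum in barcodes 16 to 20, with 397, 462, 6589, 20371 and 0 CPM. In muscles 2 and 4 the maximum lay in barcodes 6 to 10, with 2300, 4590, 114, 386 and 593 CPM in muscle 2 and 1254, 2612, 297, 500 and 316 CPM in muscle 4. Exact Poisson 95% intervals, which cover counting error only, were 16067 to 20802 CPM for barcodes 11 to 15 of muscle 1, 16441 to 25731 CPM for its barcodes 16 to 20, which held 81 tendon transcripts, and 18658 to 22160 CPM for barcodes 16 to 20 of muscle 3. The intervals of both blocks of muscle 1 overlapped, and its barcodes 18 to 20 held 0 tendon transcripts. Barcodes 6 to 10 of muscle 4 held 15 tendon transcripts. Their interval, 1462 to 4308 CPM, overlapped that of the first block of muscle 4, 1040 to 1497 CPM.

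Barcodes 16 to 20 of muscle 3 differed in make-up from the kept muscle in more than the tendon list. Collagen and matrix genes reached 37183 CPM there, against 1555 CPM in the kept sections of that muscle. Fast-fibre genes were at 149876 CPM, against 249056 CPM in the kept sections. The member with the most tendon transcripts, barcode 74 shown above, lay 19 numbers beyond the last kept section and held 199 tendon transcripts among 9262. In muscles 1, 2 and 4 that member lay 14, 3 and 2 numbers beyond, with 67, 40 and 42 tendon transcripts. By CPM the highest member for tendon genes lay 10, 6, 18 and 10 numbers beyond in muscles 1 to 4, on 57, 22, 180 and 3 transcripts. At least 1 tendon transcript was found in 20, 16, 17 and 12 of the 25 barcodes.

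The fat-cell genes, again without Car3 and Fabp4, had the member with most of their transcripts 3, 1, 2 and 4 numbers beyond, on 8, 111, 50 and 66 transcripts. By CPM the highest member lay 13, 4, 2 and 9 numbers beyond, on 6, 72, 50 and 10 transcripts. In the first block they summed to 203, 6118, 1016 and 2510 CPM, against 66.4, 85.5, 33.3 and 30.01 CPM in the kept sections. Muscle 1 was the lowest there and was at 1463 CPM in barcodes 11 to 15, on 19 transcripts; muscle 4 was at 9411 CPM in barcodes 6 to 10, on 54. Weighted by transcripts, the mean position was 8.02, 2.63, 3.11 and 3.62 numbers beyond for the fat-cell genes and 9.30, 4.64, 16.7 and 3.45 for the tendon genes, against 5.95, 8.23, 8.42 and 3.79 for all transcripts. Fat-cell genes in muscle 1 and tendon genes in muscles 1 and 3 thus lay farther out than transcripts in general, and in muscle 4 all 3 positions were close. Fat lay nearer than tendon in muscles 1, 2 and 3, and in muscle 4 the order was the other way round; no test was made of these positions.

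**Figure D4:**
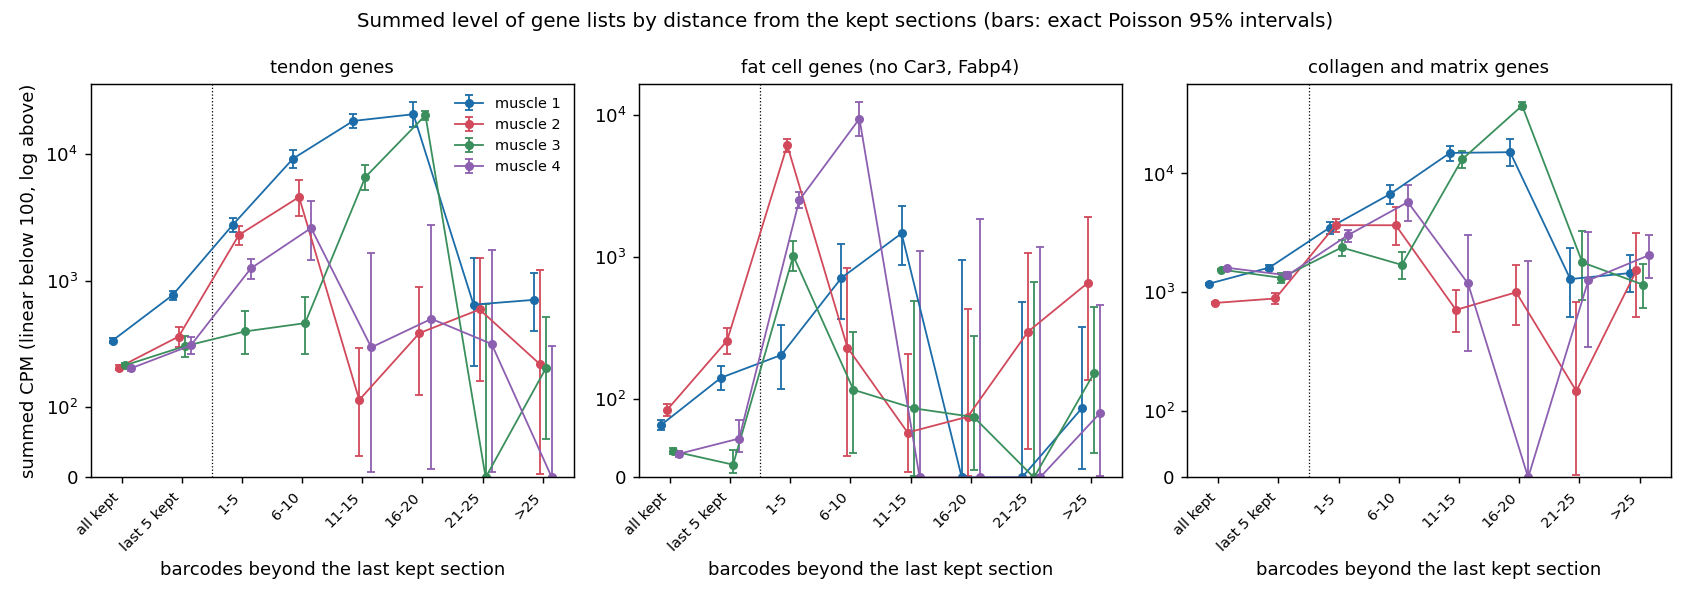
Summed CPM of the tendon, fat-cell and collagen lists in all kept sections, in the last 5, in blocks of 5 barcodes beyond and in the far barcodes, with 1 line per muscle and exact Poisson 95% intervals (axis linear below 100 and logarithmic above). Tendon genes are highest at 6 to 10 numbers beyond in muscles 2 and 4, at 11 to 20 in muscle 1 and at 16 to 20 in muscle 3. The muscle 4 value rests on 15 transcripts, and its interval overlaps that of the first block. Fat-cell genes are highest between 1 and 15.

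A test of a linear change with distance across the 20 blocks, with muscle as block, had 172 testable genes. It called 1 gene (0.581%), Neb, nebulin, the giant ruler protein of the thin filament, which was higher with distance by 0.25 ± 0.06 log2 units per block of 5 barcodes (edgeR adjusted p = 0.0412). The call was lost without muscle 2, 3 or 4 and with no block. No gene was called lower with distance, DESeq2 called 1 gene in all, and 12 genes had an unadjusted p under 0.05. Prg4 and Chad had slopes of 0.22 ± 0.37 and 0.01 ± 0.42 (edgeR adjusted p = 0.839 and 0.990), and Nnat of -1.13 ± 0.34 (edgeR adjusted p = 0.136).

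The counts beyond were also set against what a constant share of the kept mixture would give, the model in which transcripts of kept sections turn up under unused barcodes of the same pooled library. The share, taken as the median ratio over 860, 759, 1213 and 840 abundant genes, was 1.39%, 1.73%, 1.38% and 1.35% of the kept counts. Such a mixture accounted for 89.2%, 92.8%, 91.6% and 92.3% of the transcripts beyond, a mean of 91.5% ± 1.61 (SD, n = 4). This share depends on how the scale is set: it was 64.9% with the 10th percentile of the ratios in place of the median. It does not tell transcripts that came from kept sections apart from muscle in the section itself.

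The mixture fell short of the counted total by 13016, 9006, 12290 and 8481 transcripts. The excess of the tendon list equalled 5.09%, 1.89%, 5.06% and 1.39% of that shortfall, and that of the adipocyte list 1.32%, 9.05%, 0.512% and 7.16%. Single muscle genes could exceed the mixture by more transcripts: Atp2a1, the calcium pump of fast fibres, had 13824 in muscle 1 where the mixture gave 11177. In ratio, Chad and Nnat stood farther above it. The mixture gave 36.1, 23.9, 28.5 and 20.7 tendon-list transcripts in muscles 1 to 4, where 699, 194, 650 and 139 were counted. For Chad it gave 3.18, 1.04, 1.35 and 1.07 transcripts, where 123, 39, 231 and 67 were counted. For Nnat in muscles 3 and 4 it gave 0.0138 and 0.0135, where 25 and 105 were counted. With the 14 and 5 barcodes that are kept sections of the partner muscle left out, an alternative chosen after seeing the data, 243 genes were higher and 13 lower, 195 of the 355 calls among them. The 5 genes Prg4, Chad, Fmod, Nnat and Adipoq then differed by 4.66, 6.14, 4.78, 7.38 and 5.76 and stayed called.

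Muscles 1 and 2 share 1 barcode set and muscles 3 and 4 the other, which is treated as a batch. The pairs also differ in Xist, the RNA of the inactive X chromosome of female cells, which had 15 and 16 transcripts beyond in muscles 1 and 2 and 0 in muscles 3 and 4, so barcode set and the sex that Xist marks cannot be told apart. Fitted alone, muscles 1 and 2 had 67 genes called and muscles 3 and 4 had 115. Prg4, Chad, Fmod, Nnat, Adipoq and Col1a1 were higher and Hba-a1 lower, all past the threshold, within each pair.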

How the data were processed

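Sections of 4 tibialis anterior muscles were measured by TOMO-seq with CEL-Seq2. Per the submitters' processing notes, the aligner was STAR 2.7.7a and the genome GRCm38; no source used here names the counting program, its annotation or its strand setting. The authors deposited estimated counts, which from the values are UMI counts corrected for repeated draws of the same UMI (all within 0.001 of a whole UMI before correction). The authors also deposited a table of filtered, normalized signal per kept section, used only to find the kept sections (relative tolerance 1e-06). The deposited barcode list gave the sequences.

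Entries naming several genes (0.58% to 0.92% of counts) and mt- genes were left out of sums and library sizes. Estimated counts were summed per muscle and window and rounded. Symbols and coordinates came from GENCODE M21, matched by identifier. The test was edgeR's quasi-likelihood F-test (version 4.0.16, R 4.3.3; total as library size, filterByExpr, muscle as block, Benjamini-Hochberg adjustment over all genes tested, threshold 0.05). The muscle pairs the sums because both come from 1 muscle and library. SE were derived from the F statistic. Intervals and floors (3 counts) cover counting error only. On simulated counts for the 8 sums beyond and kept (11453 genes), 48 of 50 genes raised by 2 log2 units, 26 of 50 lowered by 2, 20 of 50 raised by 1 and 9 of 50 lowered by 1 were recovered, with 0 false calls. All simulated sums shared the pooled kept profile, with the same spread for every gene (dispersion 0.02) and no differences between muscles. The false calls expected with the real spread between muscles were therefore not measured.

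Named genes are those with the largest differences (12 each way against the kept sections, 6 each way otherwise) among called genes that moved 1 way in every muscle and averaged 10 CPM or more, besides members of 24 lists. The members and the lists were chosen with earlier results of these data known. Alternatives were TMM scaling, DESeq2 1.42.0, no low-count filter, no block, other windows, thinned kept sums, saturated genes left out, each muscle left out and each barcode set alone.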

Additional observations from a re-analysis of the deposited data

Results flagged for a closer look

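Cyp2f2 differed between the barcodes beyond and the kept sections by 6.19 log2 units in muscle 4. This stood apart from the other 3 muscles by more than Dixon's 95% limit for 4 values. Chance gives such a gap in about 1 of 20 groups picked beforehand. Cyp2f2 was flagged because of its gap, so that rate does not apply to it. The value rests on 15 transcripts beyond in muscle 4, and the others on 2, 3 and 5 in muscles 1 to 3. Cyp2f2 met the filter on low counts only with its counts beyond, so these differences are descriptions.

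The far barcodes, which no test used on their own, held tendon transcripts in muscle 1 at 706 CPM on 16 transcripts, against 337 CPM in its kept sections, and the lower end of the exact Poisson 95% interval was above the kept value. The level in the 25 barcodes beyond was 5814 CPM in that muscle.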

How the results depend on the processing

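Against the kept sections the count of called genes was 355, and it was 991 with TMM scaling, 221 with DESeq2 (17332 genes without an adjusted p), 78 with no replicate block, 153 with 10 barcodes beyond, 177 with barcodes 6 to 25, 141 with the kept sums thinned to the depth beyond, 67 and 115 in the muscles of each barcode set alone, and 202 to 256 with 1 muscle left out. Of the 355, 239 were called under TMM scaling and 194 by DESeq2. Against the barcodes before, the 49 calls became 11 with DESeq2, 1 with no replicate block and 18 to 53 with 1 muscle left out. Against the last 5 kept sections, the 169 calls became 32 with DESeq2, 2 with no replicate block and 91 to 146 with 1 muscle left out; TMM scaling gave 143 higher and 56 lower. The single call for distance became 2 with TMM scaling, 20 with no filter on low counts, 0 with no replicate block and 0 to 2 with 1 muscle left out. The share that the kept mixture accounts for, 91.5%, was 64.9% with the 10th percentile of the ratios, 89.5% with fast-fibre and glycolysis genes as scale, 97.04% with genes of at least 100 kept counts, and 91.03% to 92.2% with 1 muscle left out. Car3 reversed under TMM scaling (-0.067) and with barcodes 6 to 25 (-0.097), and Tigd4 with barcodes 6 to 25 (-0.79). The cause of these changes was not tested, apart from fewer samples or genes. Depth limits the genes with few transcripts: one that had none in the 501621 transcripts beyond could be at up to 5.98 CPM.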

Other observations

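Of 10 macrophage genes tested, 8 met the filter in the kept sections alone. Of these 8, 2 were higher beyond the last kept section than in the kept sections and 0 lower. Adgre1 and Cd68 met the filter only with their counts beyond, so the list's median log2 difference of 0.96 is a description. C1qb, a chain of the complement starter C1q, was at 58.2, 48.1, 124 and 9.02 CPM beyond, against 26.8, 34.99, 21.3 and 32.9 CPM in the kept sections (log2 difference 1.15 ± 0.32, edgeR adjusted p = 0.0172). Muscle 4 was lower beyond and muscle 3 the highest. F13a1, coagulation factor XIII A of tissue macrophages, had 18 of its 25 transcripts beyond in muscle 3 (log2 difference 1.71 ± 0.42, edgeR adjusted p = 0.00336). Both calls were lost with DESeq2, that of C1qb also under TMM scaling and without muscle 1, and both without muscle 3, the muscle whose collagen and matrix list was also the highest, at 9273 CPM beyond.

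Inside the range of the kept sections, 4 barcodes of muscle 1 and 1 of muscle 3 were not kept by the authors. The 4 of muscle 1 had a median of 18580 transcripts, against 2371 beyond, and the 1 of muscle 3 held 654, below the lowest barcode beyond (733).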
